A study of Homo sapiens with 12 samples.

Results

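The genes described here encode the proteins of the cytosolic ribosome, together with the paralogues that some of them have. They were taken from the deposited table by symbol: RPL or RPS with a number and an optional A, X, L, L1 or AX, plus RPLP0, RPLP1, RPLP2 and RPSA, with pseudogenes left out. The rule matched 83 genes, of which 82 had at least 0.5 CPM in at least 3 libraries and are called members here. CPM is the number of reads of a gene per 1000000 reads counted. The 82 members stand among 18674 genes tested and 28576 genes in the table. Of the members, 77 are core ribosomal proteins, 46 of the large and 31 of the small subunit. The other 5 are paralogues, each named after the core gene it resembles: RPL7L1, RPL22L1, RPL26L1, RPL39L and RPS27L. The gene under the floor was RPL3L, with a mean of 0.326 CPM and no library at 0.5 CPM or more. RPL3L is known as the striated muscle counterpart of RPL3.

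The libraries were poly(A) RNA-seq of SHEP, a human neuroblastoma cell line. All 12 libraries came from SHEP cells with a MYCN-ER fusion, which 4-hydroxytamoxifen (OHT) activates, and with a doxycycline-inducible short hairpin RNA against TCEAL1. The 4 groups of 3 libraries were OHT_Dox (200 nM OHT and 1 µg/ml doxycycline), OHT (200 nM OHT), Dox (1 µg/ml doxycycline) and Ctrl (neither). No group separates doxycycline itself from the hairpin, or OHT itself from the fusion. Treatment times are not in the labels, and neither is whether the replicates of a group were grown as separate cultures. The p-values therefore reflect only how far these libraries spread, which may be technical.

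A eukaryotic ribosome is built from ribosomal RNA and about equal amounts of each core protein, and making it is among the largest costs of a growing cell. MYC family proteins are known to promote the transcription of ribosomal protein genes. The mRNAs of these genes begin with a C followed by a run of C and T, the 5′ terminal oligopyrimidine tract, through which mTOR and LARP1 control their translation and stability. Excess free RPL5 and RPL11, bound to 5S rRNA, inhibit MDM2 and so stabilise p53. Paralogues such as RPL22L1 can take the place of their core partner in some cells.

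The start sites of members are shown first, because the tract there is the feature that core genes share. RefSeq promoters of GRCh38.p14 were available for 66 of the 82 members, 62 core and 4 paralogue. Each window runs 5′ to 3′ on the gene's strand from 15 bases before the annotated start to 15 bases from it on, and capitals mark the unbroken C and T run that begins at the start. The first 3 pairs set a core gene beside its paralogue. RPL39 and RPL7L1 follow without their counterparts, RPL39L and RPL7, and the rest are core genes named in the comparisons or at the ends of the range of levels.
RPL22, chr1:6199581-6199610, minus strand: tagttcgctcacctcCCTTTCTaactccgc
RPL22L1, chr3:170870181-170870210, minus strand: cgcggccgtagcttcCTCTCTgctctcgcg
RPL26, chr17:8383179-8383208, minus strand: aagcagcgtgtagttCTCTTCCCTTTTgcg
RPL26L1, chr5:172958714-172958743, plus strand: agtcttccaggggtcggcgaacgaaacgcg
RPS27, chr1:153990747-153990776, plus strand: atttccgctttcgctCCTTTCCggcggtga
RPS27L, chr15:63157463-63157492, minus strand: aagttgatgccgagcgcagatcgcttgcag
RPL39, chrX:119791616-119791645, minus strand: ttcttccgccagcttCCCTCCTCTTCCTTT
RPL7L1, chr6:42879601-42879630, plus strand: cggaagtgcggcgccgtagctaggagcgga
RPS12, chr6:132814554-132814583, plus strand: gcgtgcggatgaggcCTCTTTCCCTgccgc
RPL37A, chr2:216498829-216498858, plus strand: gcaccgcgtctcttcCTTTCTgggctcgga
RPS3, chr11:75399503-75399532, plus strand: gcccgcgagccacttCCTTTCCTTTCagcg
RPL13A, chr19:49487593-49487622, plus strand: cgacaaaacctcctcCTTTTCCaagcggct
RPLP0, chr12:120201097-120201126, minus strand: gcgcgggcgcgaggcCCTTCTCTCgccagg
RPS28, chr19:8321481-8321510, plus strand: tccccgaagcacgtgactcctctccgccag

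A tract, defined here as C followed by at least 4 bases that are each C or T, began exactly at the annotated start in 42 of 62 core genes (67.7%). It did so in 1 of 4 paralogues (RPL22L1), in 5.34% of 11394 tested genes and in 4.04% of all 27305 promoters in the table. When the tract could begin up to 10 bases to either side, 55 of 62 core genes held one (88.7%), against 34.1% of tested genes, and again only RPL22L1 among the 4 paralogues. In RPS28, printed above, the annotated start is an A and the C and T run begins at the next base. Over the whole 300-base promoter, with both strands searched, CGGAAG, the core of the sites of ETS family factors, occurred in 39 of 62 core genes (62.9%). It occurred in 2 of 4 paralogues (RPL7L1 and RPS27L) and in 31.2% of tested genes. CACGTG, the E-box that MYC and MAX bind, occurred in 3 of 62 core genes (4.84%), in 1 of 4 paralogues (RPL7L1) and in 9.81% of tested genes. TATAAA occurred in 5 of 62 core genes (8.06%), in 1 of 4 paralogues (RPL22L1) and in 6.14% of tested genes. CACGTG reads the same on both strands, and none of the 3 motifs contains another. These matches are descriptions of letters in a window and show no binding.

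Core genes were abundant, and every paralogue lay at or under the bottom of the core range of levels per transcript length. Mean CPM of core genes over the 12 libraries ranged between 169 and 2409, with a median of 531, which is a median of 28389 reads per library. Per kilobase of annotated transcript, core genes ranged between 161 and 2426 CPM with a median of 753. The medians of the subunits were 742 CPM per kilobase for the large and 788 for the small. The highest were RPLP0 (2426 CPM per kilobase), the base of the ribosomal stalk, RPLP1 (1893), an acidic protein of that stalk, and RPL8 (1762), a large-subunit protein near the peptidyl transferase centre. The lowest were RPS28 (161), RPS26 (194) and RPS29 (249), all small-subunit proteins. The transcript lengths used for RPS28 (1326 bases) and RPS26 (1140 bases) were above the core median of 691 bases, so their low places depend on the transcript chosen.

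On the same scale the paralogues stood at 123 CPM per kilobase for RPS27L, 101 for RPL26L1, 93.3 for RPL7L1, 90.5 for RPL39L and 35.6 for RPL22L1. RPS27L is known as a p53 target gene, RPL39L, in mice, as the form used by male germ cells, and RPL7L1 as a protein of maturing large-subunit particles. All 5 lay below the lowest core gene with the median transcript length. With each gene's shortest annotated coding transcript, RPS27L (162) and RPS28 (161) changed places and the other 4 paralogues stayed below all core genes.

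**Figure D1:**
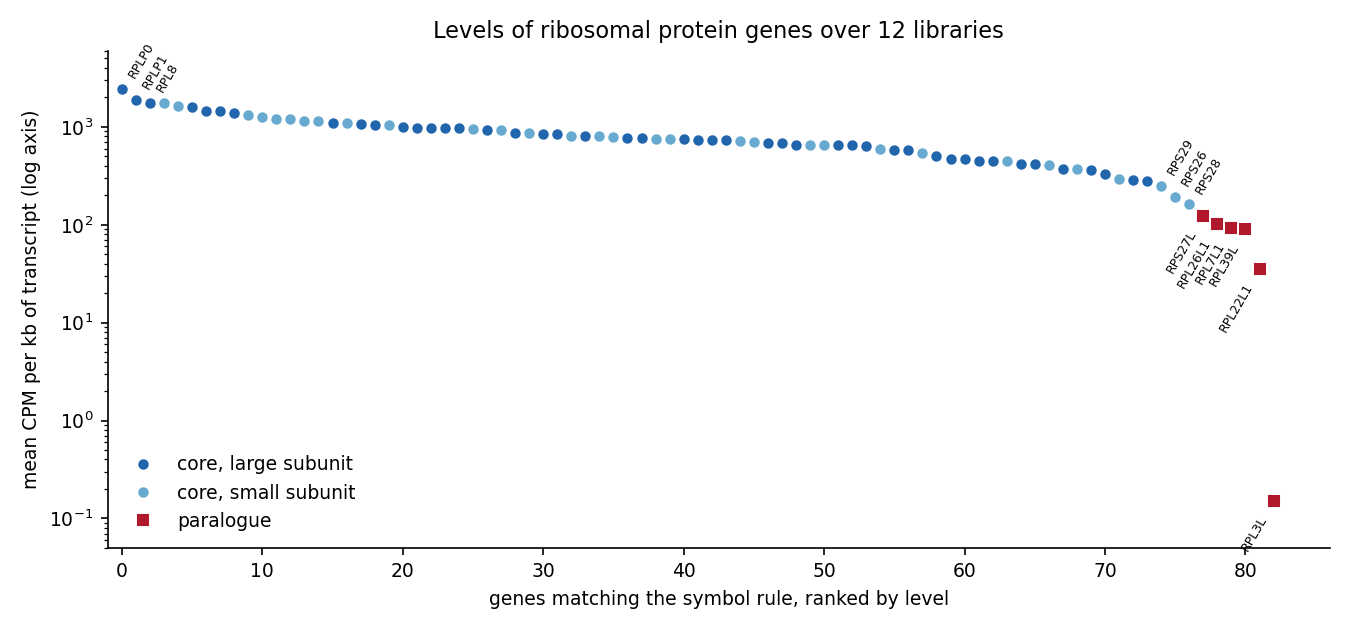
Mean CPM per kilobase of annotated transcript over 12 libraries (log axis) for the 83 genes that match the symbol rule, ranked from highest to lowest; circles are core genes and squares paralogues. Core genes span 161 to 2426 CPM per kilobase, the 5 paralogue members 35.6 to 123, and RPL3L lies far below.

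Some members share reads with other features. RPL17, RPL36A and RPS10 overlap readthrough genes that the table lists on their own with similar means: 653 CPM for RPL17-C18orf32 beside 662 for RPL17, 535 for RPL36A-HNRNPH2 beside 449 for RPL36A, and 536 for RPS10-NUDT3 beside 517 for RPS10. A median of 27.1% of the 50-base words of a core transcript also occurred in annotated pseudogenes, from 0% to 83.1%. The 155 tested rows of ribosomal protein pseudogenes summed to between 6.35% and 6.76% of the core CPM in every library. How the counting treated such reads is not given in the sources used here, so values of single members are uncertain to that extent. Paralogue transcripts shared 0% of these words with their partner, except RPL39L at 2.57%. For RPL26L1, 51.1% of the words occurred in annotated pseudogenes.

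Whole read counts recovered from the CPM came to between 44466458 and 57694970 reads per library. TCEAL1, the hairpin's target, had 1.73 to 2.74 CPM in the 6 libraries with Dox and 8.23 to 10.7 CPM in the 6 without. All 7 markers of mesenchymal neuroblastoma cells were detected, whereas 2 of 7 adrenergic markers, HAND2 and GATA3, passed the floor and PHOX2A, DBH, TH and CHGA did not. The 4 haematopoietic markers were below the floor, as were the epithelial KRT5 and KRT14, while EPCAM and CDH1 passed with a summed level of 0.380 to 1.99 CPM over the libraries. The summed mesenchymal markers were 3317 to 3546 CPM in OHT_Dox, 3905 to 4135 in OHT, 3347 to 3535 in Dox and 4078 to 4367 in Ctrl. The summed adrenergic markers were 70.6 to 75.0 CPM in OHT_Dox, 65.9 to 73.6 in OHT, 56.5 to 61.7 in Dox and 58.5 to 63.3 in Ctrl. The part of these markers in the results below was not tested.

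The 77 core genes together took 4.74%, 4.60% and 4.75% of the reads in OHT_Dox libraries, in order of replicate. They took 4.44%, 4.95% and 4.54% in OHT libraries, 4.73%, 4.46% and 4.50% in Dox libraries, and 4.81%, 5.34% and 5.23% in Ctrl libraries. The means were 4.70% ± 0.087 in OHT_Dox, 4.64% ± 0.27 in OHT, 4.57% ± 0.15 in Dox and 5.13% ± 0.28 in Ctrl (SD, n = 3 each). Replicates 2 and 3 of Ctrl were the highest of the 12 libraries. Replicate 2 of OHT lay above replicate 1 of Ctrl, so OHT and Ctrl overlapped. All OHT_Dox and Dox libraries lay below Ctrl, by little in the case of Ctrl replicate 1. The ratio of large-subunit to small-subunit CPM averaged 1.63 ± 0.0080 in OHT_Dox, 1.61 ± 0.0043 in OHT, 1.62 ± 0.0019 in Dox and 1.59 ± 0.021 in Ctrl. In bulk RNA a lower share cannot be told apart from more RNA of other genes, or from a different mix of cells.

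**Figure D2:**
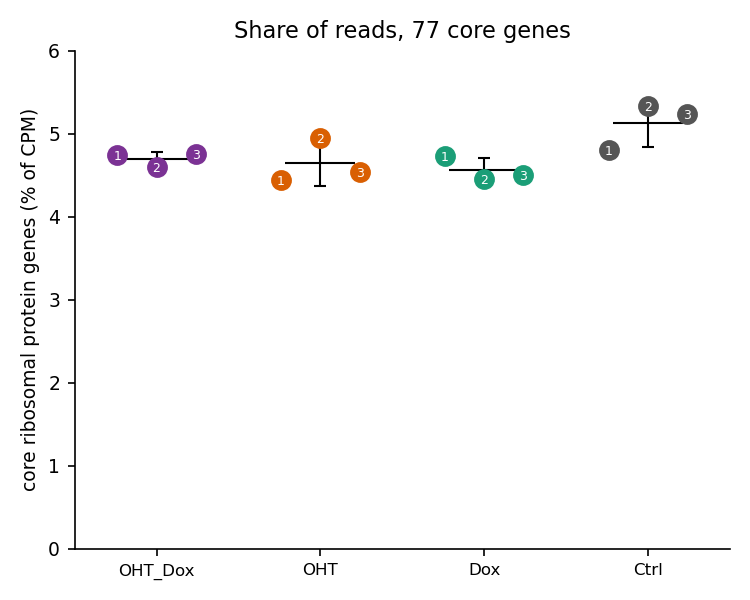
Share of all reads (% of CPM) taken by the 77 core ribosomal protein genes in each library; numbers in the points are replicate numbers, and bars show mean and SD of 3 libraries. Ctrl replicates 2 and 3 stand at 5.34% and 5.23%, above the other 10 libraries, which lie between 4.44% and 4.95%.

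The comparison of OHT with Ctrl addresses the response of these genes to MYCN-ER activation with the hairpin off. Core genes were slightly lower in OHT. Of 77 core genes, 0 were called higher and 22 lower by limma at an adjusted p below 0.05 (Benjamini-Hochberg over all 18674 genes), and 74 of 77 had a negative log2 change. Among all genes tested, 12.6% were called higher and 8.79% lower. The median log2 change was -0.14 over core genes and -0.01 over all genes. The calls came from both subunits, 13 of 46 large-subunit and 9 of 31 small-subunit genes. In 15 core genes all 3 OHT libraries lay below all 3 Ctrl libraries, which held for 16.7% of all genes tested. All changes given here are on the log2(CPM + 0.5) scale with their standard error (SE).

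The call with the smallest p was RPS20, a small-subunit protein that ZNF598 ubiquitinates on collided ribosomes. RPS20 had 984, 1064 and 997 CPM in OHT libraries, against 1119.7, 1276 and 1222 CPM in Ctrl libraries. Each OHT library was below each Ctrl library, and the log2 change was -0.25 ± 0.06 (SE, adjusted p = 0.00322). RPS12, a small-subunit protein, had 489, 529 and 521 CPM in OHT, against 549, 701 and 633 CPM in Ctrl. Its log2 change was -0.28 ± 0.07 (adjusted p = 0.00429), and Ctrl replicate 1 lay closer to the OHT libraries than to the other Ctrl libraries. RPL37A, a zinc-binding large-subunit protein, had 475, 508 and 491 CPM in OHT, against 528, 617 and 603 CPM in Ctrl. Its log2 change was -0.24 ± 0.06 (adjusted p = 0.00541), with the same order of Ctrl libraries.

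RPS26, which lines the exit of the mRNA channel, had 185, 216 and 212 CPM in OHT, against 221, 269 and 251 CPM in Ctrl (log2 change -0.27 ± 0.07). RPL28 had 515, 564 and 561 CPM in OHT, against 595, 705 and 703 CPM in Ctrl (log2 change -0.29 ± 0.07). RPL28 showed the lowest log2 change of the core genes in this comparison. RPL13A, also known for a role in translational silencing outside the ribosome, had 1016, 1089.7 and 1022 CPM in OHT, against 1146, 1370.5 and 1214 CPM in Ctrl (log2 change -0.25 ± 0.06). RPS29 averaged 159 ± 6.2 CPM in OHT and 185 ± 12 CPM in Ctrl (SD, n = 3 each). RPL38, known for control of Hox mRNA translation in mice, averaged 562 ± 37 CPM in OHT and 669 ± 56 CPM in Ctrl. The adjusted p of these 5 genes lay between 0.00704 and 0.0111. In each of the 8 genes the groups did not overlap and replicate 1 was the lowest Ctrl library.

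The other 14 calls included both acidic stalk proteins, RPLP1 (-0.19 ± 0.05, adjusted p = 0.0149) and RPLP2 (-0.19 ± 0.05, adjusted p = 0.0149), and RPS27A (-0.27 ± 0.08, adjusted p = 0.0243), which is made as a fusion with ubiquitin. The base of the stalk, RPLP0, had 2320.1, 2624 and 2287 CPM in OHT, against 2423, 2559 and 2664 CPM in Ctrl, and did not pass (adjusted p = 0.349). RPL5 had 745, 813 and 752 CPM in OHT, against 755, 778 and 799.6 CPM in Ctrl (adjusted p = 0.877). Its partner in the 5S particle, RPL11, had 686, 769 and 718 CPM in OHT, against 756, 813 and 819 CPM in Ctrl (adjusted p = 0.0803). RPS6, the substrate of the S6 kinases, averaged 486 ± 43 CPM in OHT and 525 ± 34 CPM in Ctrl (adjusted p = 0.202). The 3 core genes with a positive change, RPL23, RPL29 and RPL27, stayed below 0.023 and did not pass. They were picked after their values were seen.

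The number of calls rested on single libraries. Without Ctrl replicate 2 there were 8 core calls, without Ctrl replicate 3 there were 12, and without Ctrl replicate 1, the Ctrl library with the lowest core share, there were 40. Leaving out OHT replicate 1 gave 6, replicate 2 gave 43 and replicate 3 gave 10. Over all genes tested, 1641 were called lower with all libraries. Without Ctrl replicate 2 there were 1137 over all genes, without Ctrl replicate 3 1195 and without Ctrl replicate 1 1698. Without OHT replicate 1, 2 or 3 there were 1096, 1416 and 1130. The core median stayed negative throughout, between -0.19 and -0.11. Core transcripts are short, with a median of 691 bases against 1831 bases over all genes tested, and Ctrl replicates 2 and 3 had the strongest tendency towards short genes (Spearman rho of a gene's deviation with length of -0.20 and -0.18). With trends of length and GC content removed from each library, 18 core genes were called lower and the core median was -0.12. Over all 18673 genes in that fit, 2331 were called lower.

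**Figure D3:**
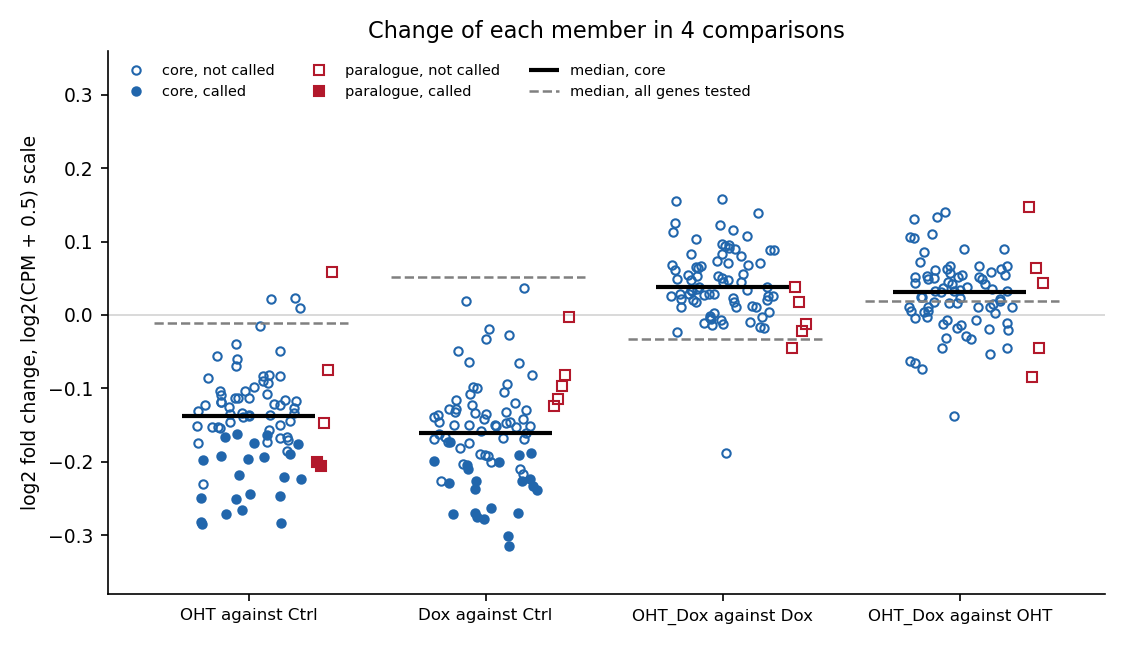
Log2 fold change on the log2(CPM + 0.5) scale of each of the 77 core genes (circles) and 5 paralogues (squares) in 4 comparisons; filled symbols are calls at an adjusted p below 0.05, solid lines core medians and dashed lines medians of all genes tested. Core medians are -0.14 for OHT against Ctrl, -0.16 for Dox against Ctrl, 0.04 for OHT_Dox against Dox and 0.03 for OHT_Dox against OHT, and the first pair share the Ctrl libraries.

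With the hairpin induced, core genes were not called in either direction after MYCN-ER activation. In OHT_Dox against Dox, limma called 0 of 77 core genes higher and 0 lower, among 11.5% of all genes called higher and 14.5% lower. At an unadjusted p below 0.05 there were 4 core genes, beside 6820 of the 18674 genes tested. With edgeR and with DESeq2 1 core gene was called higher, RPL36, beside 2541 and 2624 of all genes. The core median was 0.04 and that of all genes -0.03, and 64 of 77 core genes had a positive change. After TMM rescaling the core median was 0.07. RPL36 had 302, 273 and 307 CPM in OHT_Dox, against 279.6, 256 and 255 CPM in Dox (log2 change 0.16, limma adjusted p = 0.0675). RPL35 had 463, 448 and 469.6 CPM in OHT_Dox, against 437, 402 and 403 CPM in Dox (log2 change 0.15, adjusted p = 0.0727). RPL10, which completes the large subunit late in its maturation, had 397, 390.3 and 481 CPM in OHT_Dox, against 497, 501 and 442 CPM in Dox (log2 change -0.19, adjusted p = 0.108). RPL10 was the one core gene past 0.1 in the other direction, and replicate 3 lay on the other side in both groups. These 3 genes were picked after their values were seen. RPS20 had 1022, 996 and 1033 CPM in OHT_Dox, against 1081, 1009 and 999.6 CPM in Dox, and the groups overlapped.

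The comparison of Dox with Ctrl addresses the hairpin against TCEAL1 without MYCN-ER activation. Of 77 core genes, 0 were called higher and 22 lower, and 75 had a negative log2 change. Among all genes tested, 5.68% were called higher and 2.61% lower. The core median was -0.16, against 0.05 over all genes. In 46 core genes all 3 Dox libraries lay below all 3 Ctrl libraries, which held for 9.77% of all genes tested. The calls comprised 10 of 46 large-subunit and 12 of 31 small-subunit genes. This comparison uses the same Ctrl libraries as OHT against Ctrl, so the counts of the pair are not independent of each other.

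RPS3, a small-subunit protein at the mRNA entry channel with a known role in DNA repair, had 957, 938 and 976 CPM in Dox, against 1090.4, 1348 and 1146 CPM in Ctrl. Its log2 change was -0.31 ± 0.07 (adjusted p = 0.0102), the lowest of the 77 core genes in this comparison, and the groups did not overlap. RPS19, the gene most often mutated in Diamond-Blackfan anaemia, had 473, 436 and 438 CPM in Dox, against 503, 613 and 548 CPM in Ctrl (log2 change -0.30 ± 0.07, adjusted p = 0.0189). RPLP2 had 395, 388 and 392 CPM in Dox, against 423, 492 and 465 CPM in Ctrl (log2 change -0.23 ± 0.05, adjusted p = 0.0185). The 3 Dox libraries of RPLP2 differed from each other by less than the gap to Ctrl replicate 1.

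RPL13A averaged 1029 ± 41 CPM in Dox and 1244 ± 115 CPM in Ctrl (log2 change -0.27 ± 0.06). RPS20 averaged 1029.9 ± 44.5 CPM in Dox and 1206 ± 79 CPM in Ctrl (log2 change -0.23 ± 0.06). RPL37A averaged 493 ± 10 CPM in Dox and 583 ± 48 CPM in Ctrl (log2 change -0.24 ± 0.06). RPS12 averaged 520.3 ± 9.8 CPM in Dox and 628 ± 76.5 CPM in Ctrl (log2 change -0.26 ± 0.07), and RPL28 549 ± 17.5 CPM in Dox and 668 ± 63 CPM in Ctrl (log2 change -0.28 ± 0.07). The adjusted p of these 5 genes lay between 0.018 and 0.0258. In all 8 genes the SD in Dox was smaller than in Ctrl. RPLP1 (-0.20 ± 0.05, adjusted p = 0.0284) and RPS27A (-0.28 ± 0.08, adjusted p = 0.0431) were also called lower. RPLP0 (-0.13, adjusted p = 0.155), RPL11 (-0.14, adjusted p = 0.101), RPS6 (-0.16, adjusted p = 0.107) and RPL5 (-0.06, adjusted p = 0.452) were not.

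**Figure D4:**
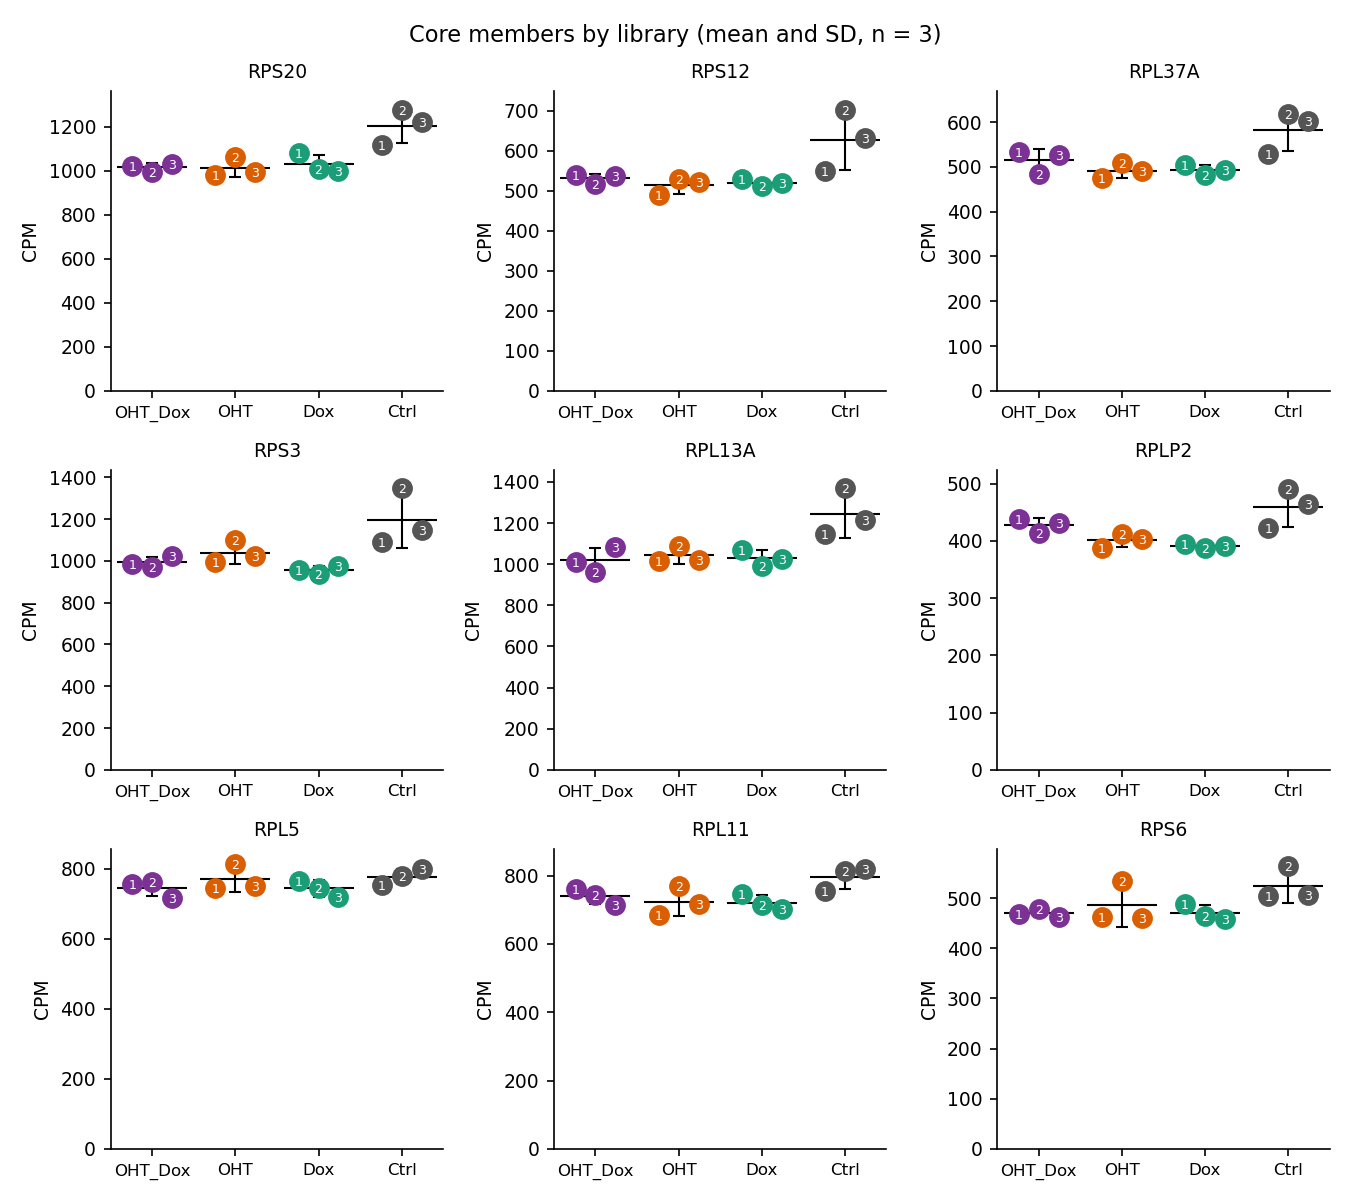
CPM of 9 core genes in each of the 12 libraries; numbers in the points are replicate numbers, and bars show mean and SD of 3 libraries. In the upper 6 panels the Dox libraries lie below all Ctrl libraries and Ctrl replicate 2 is the highest of all, whereas RPL5 ranges between 718 and 813 CPM with all groups overlapping.

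These calls also rested on single libraries. Without Dox replicate 2 there were 0 core calls, and there was 1 without Dox replicate 3, 1 without Ctrl replicate 2 and 1 without Ctrl replicate 3. Without Ctrl replicate 1 there were 46. There were 11 without Dox replicate 1, 11 without OHT replicate 3 and 11 without OHT_Dox replicate 1, where the last pair enter only through the shared spread. The calls over all genes moved as well, from 487 lower with all libraries. They numbered 112 without Dox replicate 2, 217 without Dox replicate 3, 199 without Ctrl replicate 2 and 122 without Ctrl replicate 3. Without Ctrl replicate 1 they numbered 906. They numbered 264, 364 and 370 without Dox replicate 1, OHT replicate 3 and OHT_Dox replicate 1. The core median lay between -0.21 and -0.14 throughout. The direction over all genes depended on the scaling: 1061 genes were called higher and 487 lower on the CPM as deposited, against 519 higher and 771 lower after TMM rescaling. With edgeR 515 were higher and 804 lower, and with DESeq2 896 were higher and 1168 lower. After TMM rescaling the core median was -0.21 with 77 of 77 negative, and 30 were called lower. DESeq2 called 50 core genes lower, and with no filter on low values limma called 6, among 318 of 28576 genes. With length and GC trends removed, 426 genes were called higher and 756 lower, and 27 core genes were called lower. Across all genes the log2 change of Dox against Ctrl went with length (Spearman rho 0.23) and GC content (rho -0.29), where genes share libraries and are not independent.

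With MYCN-ER active, induction of the hairpin gave no core call. In OHT_Dox against OHT, limma called 0 of 77 core genes higher and 0 lower, among 0.509% of all genes called higher and 1.59% lower. At an unadjusted p below 0.05 there were 2 core genes, beside 2453 of the 18674 genes tested. Both edgeR and DESeq2 called 0 core genes. Over all genes edgeR called 85 higher and 373 lower, and DESeq2 166 higher and 519 lower. The core median was 0.03, against 0.02 over all genes, and the range over core genes was -0.14 to 0.14. RPS3 had 983, 971 and 1023 CPM in OHT_Dox, against 997, 1099 and 1023 CPM in OHT. RPLP2 had 438, 413 and 431 CPM in OHT_Dox, against 388, 412 and 404 CPM in OHT. RPLP2 was the 1 core gene of 77 whose OHT_Dox libraries all lay above the OHT libraries, which held for 10.4% of all genes tested, and it did not pass (adjusted p = 0.504).

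The test of the difference, (OHT_Dox minus Dox) minus (OHT minus Ctrl), called 0 core genes in either direction with limma, and 0% of all genes tested (2879 at an unadjusted p below 0.05, with 0 calls by edgeR and 1 by DESeq2). The core median of this difference was 0.20, against -0.04 over all genes, and 75 of 77 core genes had a positive value. At an unadjusted p below 0.05 there were 42 core genes, and edgeR and DESeq2 called 0 of them. The smallest adjusted p of a core gene was 0.221, shared by RPLP2 (0.32 ± 0.08) and RPL37A (0.30 ± 0.08) among others. Without Ctrl replicate 1, 28 core genes were called higher, among 1.46% of all genes, while no other single library left out gave a call. The Ctrl libraries enter this difference with a positive sign and both comparisons with Ctrl with a negative sign.

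Variation between groups was computed for genes of the symbol rule only and was not compared with that of other genes. The coefficient of variation of the 4 group means had a median of 5.42% over core genes, between 1.08% for RPL23, a protein at the face where the subunits join, and 10.0% for RPL41, the shortest ribosomal protein. RPL41 averaged 656 ± 25 CPM in OHT_Dox libraries, 639 ± 35 CPM in OHT libraries, 644 ± 19.5 CPM in Dox libraries and 783 ± 119.9 CPM in Ctrl libraries. Calls occurred among core genes with and without a tract at the start. For OHT against Ctrl, 16 of the 42 core genes with a tract at the annotated start were called lower with a median log2 change of -0.16, beside 4 of 20 without it with a median of -0.14. For Dox against Ctrl, 17 of 42 with a tract were called lower (median -0.17), beside 3 of 20 without it (median -0.14). These are counts over genes of the same libraries, and the difference between the promoter classes was not tested.

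Among the paralogues, 2 of 5 were called lower and 0 higher in OHT against Ctrl, where 8.79% of all genes were called lower and 12.6% higher, and limma, edgeR and DESeq2 called none in the other comparisons or in the test of the difference. RPL26L1 had 61.6, 65.9 and 66.3 CPM in OHT, against 67.1, 80.9 and 76.4 CPM in Ctrl (log2 change -0.21 ± 0.07, adjusted p = 0.0355). RPL39L had 59.96, 67.9 and 63.6 CPM in OHT, against 71.0, 72.6 and 76.5 CPM in Ctrl (log2 change -0.20 ± 0.06, adjusted p = 0.0172). In both genes each OHT library lay below each Ctrl library. Neither held without OHT replicate 1 (adjusted p of 0.139 for RPL26L1 and 0.102 for RPL39L), without OHT replicate 3 (0.0598 and 0.0534) or without Ctrl replicate 3 (0.107 and 0.0797), and RPL26L1 also missed without Ctrl replicate 2 (0.171), OHT replicate 2 (0.0508) or OHT_Dox replicate 1 (0.0505) and with no filter on low values (0.0502). Their core partners did not pass, with a log2 change of -0.19 ± 0.07 for RPL26 (adjusted p = 0.0728) and -0.09 ± 0.07 for RPL39 (adjusted p = 0.363).

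RPL22L1 had 16.9, 18.4 and 16.2 CPM in OHT libraries, 15.8, 20.7 and 17.7 CPM in Dox libraries, and 17.4, 21.0 and 18.9 CPM in Ctrl libraries. These groups overlapped, with log2 changes of -0.15 ± 0.10 for OHT and -0.08 ± 0.10 for Dox against Ctrl. RPL22, its partner, changed by -0.13 ± 0.06 in OHT and -0.13 ± 0.06 in Dox against Ctrl and was called in neither. RPS27L had 82.8, 92.9 and 82.3 CPM in OHT libraries, 88.0, 81.6 and 81.2 CPM in Dox libraries, and 89.1, 90.8 and 91.5 CPM in Ctrl libraries (log2 changes -0.07 ± 0.06 and -0.11 ± 0.06 against Ctrl). RPL7L1 had 343, 377 and 365 CPM in OHT libraries, 360.4, 344 and 335 CPM in Dox libraries, and 351, 362 and 329 CPM in Ctrl libraries (log2 changes 0.06 ± 0.05 and -0.0034 ± 0.05 against Ctrl). RPL7L1 was the paralogue whose change with OHT was not negative. In OHT_Dox the means were 71.6 CPM for RPL26L1, 66.7 for RPL39L, 17.7 for RPL22L1, 81.1 for RPS27L and 351 for RPL7L1. For Dox against Ctrl, 1 paralogue, RPL39L, had an unadjusted p below 0.05 (0.0451), and for OHT_Dox against OHT it was RPL26L1 (0.0427), while in OHT_Dox against Dox there was 0 and in the test of the difference there were 2, RPL26L1 (0.24 ± 0.10) and RPL39L (0.19 ± 0.08). Of all 18674 genes tested, 4975 had such a p in Dox against Ctrl and 2453 in OHT_Dox against OHT. In OHT_Dox against Dox 6820 did, and in the test of the difference 2879.

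The ratio of a paralogue to its core partner within a library does not depend on how libraries are scaled. It can still depend on a library's length and GC trends, which were not removed from the ratios. RPL22L1 stood at 4.34% to 6.10% of the CPM of RPL22 over the 12 libraries (median 5.06%). RPL26L1 stood at 11.0% to 13.6% of RPL26 (median 12.5%), and RPL39L at 14.2% to 17.0% of RPL39 (median 15.9%). RPS27L stood at 17.3% to 19.99% of RPS27 (median 18.5%), and RPL7L1 at 32.6% to 39.7% of RPL7 (median 38.5%). Each ratio was tested for OHT and for Dox over all 12 libraries by an exact two-sided permutation test that kept the other compound fixed, with 10 tests adjusted together. None of the 10 passed, and the smallest adjusted p was 0.133.

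Of the 10 tests, 3 had an unadjusted p below 0.05, all with Dox. RPS27L relative to RPS27 was 17.6%, 18.3% and 17.3% in OHT_Dox, against 19.99%, 19.8% and 19.5% in OHT. It was 17.96%, 18.4% and 18.5% in Dox, against 19.2%, 19.99% and 17.8% in Ctrl. The log2 difference with Dox was -0.10 (permutation p = 0.025, adjusted p = 0.133), and the groups overlapped without OHT but not with it. RPL26L1 relative to RPL26 was 12.5%, 13.6% and 12.6% in Dox, against 11.7%, 11.6% and 12.7% in Ctrl, and the log2 difference with Dox, OHT_Dox and OHT libraries included, was 0.12 (permutation p = 0.03, adjusted p = 0.133). RPL7L1 relative to RPL7 was 39.5%, 37.98% and 39.1% in Dox, against 37.2%, 33.3% and 32.6% in Ctrl. Its log2 difference was 0.10 with Dox (permutation p = 0.04, adjusted p = 0.133) and 0.09 with OHT (permutation p = 0.07, adjusted p = 0.175), and Ctrl replicates 2 and 3 were the lowest of the 12 libraries. The transcripts used were 3769 bases for RPL7L1 and 1101 for RPL7, and Ctrl replicates 2 and 3 leaned most towards short genes. The part of length in this ratio was not tested. RPL39L relative to RPL39 differed by -0.08 with OHT (permutation p = 0.105, adjusted p = 0.21). RPL22L1 relative to RPL22 differed by -0.02 with OHT and 0.05 with Dox, within the spread of the Dox libraries alone.

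**Figure D5:**
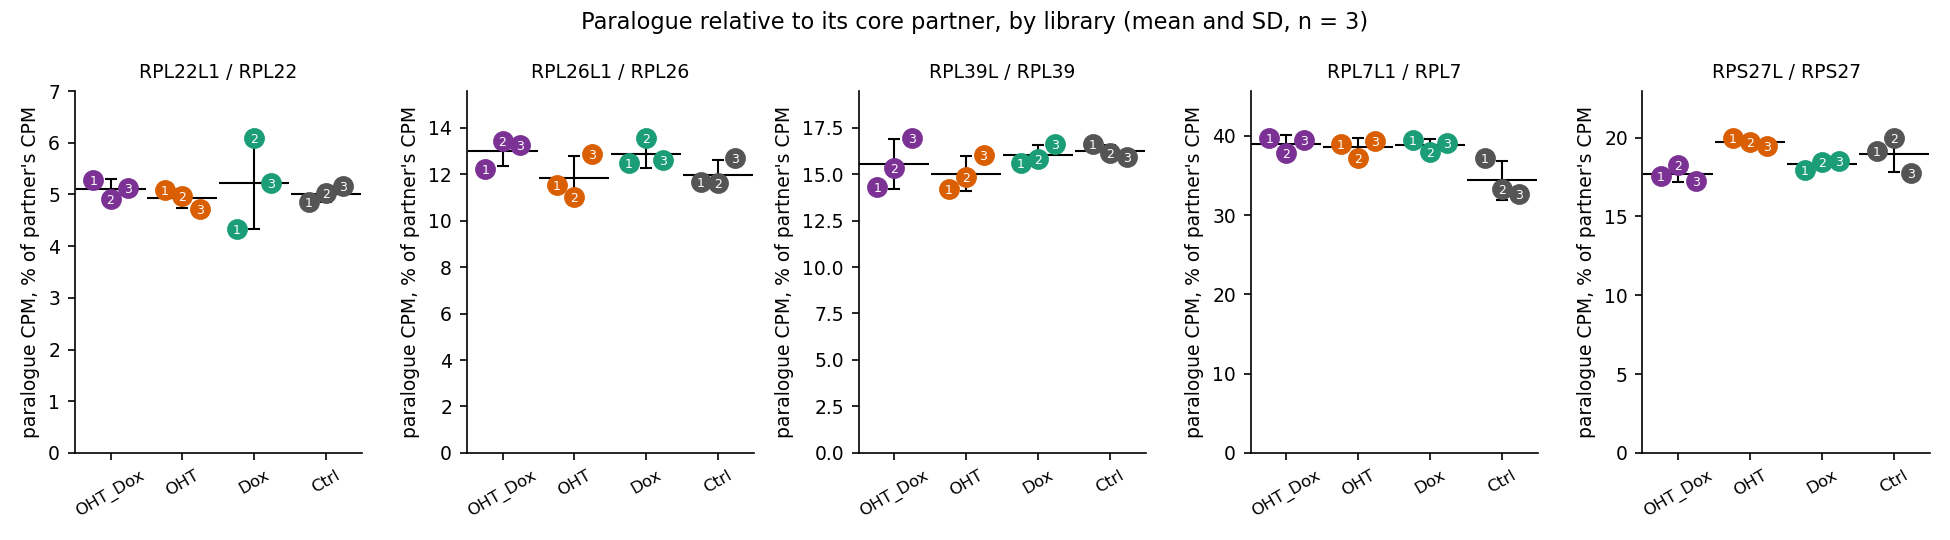
CPM of each paralogue as a percentage of the CPM of its core partner in each library; numbers in the points are replicate numbers, and bars show mean and SD of 3 libraries. RPL22L1 lies between 4.34% and 6.10% of RPL22, and RPL7L1 between 32.6% and 39.7% of RPL7 with Ctrl replicates 2 and 3 at the bottom.

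FAU (a fusion of a ubiquitin-like protein with RPS30), RPL36AL and RACK1 are ribosomal protein genes that the symbol rule misses. In OHT against Ctrl, 1 of these 3 was called lower and 0 higher, beside 8.79% and 12.6% of all genes. RPL36AL averaged 117 ± 5.6 CPM in OHT and 135 ± 8.0 CPM in Ctrl (log2 change -0.20 ± 0.06, adjusted p = 0.0238). In Dox against Ctrl, 1 of 3 was called lower and 0 higher, beside 2.61% and 5.68% of all genes. FAU averaged 207 ± 9.8 CPM in Dox and 252 ± 31 CPM in Ctrl (log2 change -0.28 ± 0.07, adjusted p = 0.0284). With length and GC trends removed FAU missed the threshold (adjusted p = 0.0507). The FAU call was also lost without Ctrl replicate 2 or 3 or Dox replicate 2 or 3, and that of RPL36AL without Ctrl replicate 2 or 3 or OHT replicate 1 or 3. RACK1, a scaffold protein of the small subunit, averaged 1049 ± 39 CPM in OHT libraries, 1005 ± 22 CPM in Dox libraries and 1060.2 ± 64 CPM in Ctrl libraries and was not called. None of the 3 was called in OHT_Dox against Dox or OHT_Dox against OHT.

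The list of 21 other genes known for terminal oligopyrimidine mRNAs, mostly translation factors, gave 1 call in each comparison with Ctrl, in opposite directions. Its median log2 change was -0.08 for OHT against Ctrl and -0.04 for Dox against Ctrl. In OHT against Ctrl 1 of 21 was called higher and 0 lower, beside 12.6% and 8.79% of all genes. EIF4B, an initiation factor that helps unwind mRNA, averaged 382 ± 11 CPM in OHT and 332 ± 19 CPM in Ctrl (log2 change 0.20 ± 0.05, adjusted p = 0.00637). In Dox against Ctrl 0 were called higher and 1 lower, beside 5.68% and 2.61% of all genes. EEF1D, an elongation factor subunit, averaged 362 ± 17 CPM in Dox and 416 ± 32 CPM in Ctrl (log2 change -0.20 ± 0.06, adjusted p = 0.0491). The EEF1D call was lost with length and GC trends removed (-0.13, adjusted p = 0.157) and with any 1 of 8 libraries left out, the 3 Dox libraries among them. None was called in the other 2 comparisons.

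Of 13 chaperones and importers of ribosomal proteins, 3 were called higher and 0 lower in OHT against Ctrl, where 12.6% of all genes were called higher and 8.79% lower. BCCIP, in human cells a chaperone of RPL23, averaged 206 ± 6.4 CPM in OHT and 174 ± 7.5 CPM in Ctrl (log2 change 0.24 ± 0.06, adjusted p = 0.0036). PDCD2, a chaperone of RPS2, averaged 128 ± 3.1 CPM in OHT and 111 ± 4.4 CPM in Ctrl (log2 change 0.21 ± 0.05, adjusted p = 0.00618). The importer TNPO1 averaged 304 ± 18 CPM in OHT and 231 ± 22 CPM in Ctrl (log2 change 0.40 ± 0.08, adjusted p = 0.00114). In OHT_Dox against Dox, 4 of 13 were called higher and 1 lower, beside 11.5% and 14.5% of all genes. BCCIP averaged 205 ± 8.7 CPM in OHT_Dox and 169.8 ± 9.9 CPM in Dox, and PDCD2 126 ± 2.7 CPM in OHT_Dox and 106 ± 3.2 CPM in Dox. PDCD2L (0.36 ± 0.09) and AAMP (0.16 ± 0.05) were the other calls upward, and IPO9 fell to 197 ± 6.4 CPM in OHT_Dox, against 233 ± 1.8 CPM in Dox. In Dox against Ctrl 1 of 13, IPO9, was called higher (0.19 ± 0.05, adjusted p = 0.0363) and 0 lower, beside 5.68% and 2.61% of all genes. In OHT_Dox against OHT none of the 13 was called. With length and GC trends removed IPO9 lost both calls (-0.0080 in Dox against Ctrl and -0.10 in OHT_Dox against Dox), and so did AAMP its own (0.11, adjusted p = 0.16). The IPO9 call in Dox against Ctrl was also lost after TMM rescaling (0.14, adjusted p = 0.114) and without any 1 Dox library, Ctrl replicate 2, Ctrl replicate 3, OHT replicate 3 or OHT_Dox replicate 1. The AAMP call was lost without any 1 Dox library or OHT_Dox replicate 3.

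The list of 14 sensors and regulators of ribosomal protein supply held the largest change among the called genes of these 4 lists. LARP1, the protein that binds terminal oligopyrimidine mRNAs, averaged 422 ± 25 CPM in OHT and 283 ± 21 CPM in Ctrl (log2 change 0.58 ± 0.06, adjusted p = 4.72e-07). With the hairpin induced LARP1 averaged 404 ± 7.7 CPM in OHT_Dox and 297 ± 5.3 CPM in Dox (log2 change 0.44 ± 0.06, adjusted p = 1.27e-05). In OHT against Ctrl 4 of 14 were called higher and 1 lower, beside 12.6% and 8.79% of all genes. LARP4 (0.47 ± 0.08), ZNF598 (0.22 ± 0.07), a ligase that marks collided ribosomes, and the S6 kinase RPS6KB1 (0.18 ± 0.06) rose, and CDKN1A (-0.21 ± 0.07), a p53 target gene, fell. In OHT_Dox against Dox 3 of 14 were called higher and 3 lower, beside 11.5% and 14.5% of all genes. ZNF598 (0.34 ± 0.07) and the translation repressor EIF4EBP1 (0.33 ± 0.06) rose with LARP1, while CDKN1A (-0.35 ± 0.07), MDM2 (-0.26 ± 0.06) and EIF4EBP2 (-0.21 ± 0.05) fell. MDM2 averaged 85.5 ± 8.2 CPM in OHT_Dox and 102 ± 2.1 CPM in Dox. In Dox against Ctrl 2 of 14, EIF4EBP2 (0.26 ± 0.05) and RPS6KB1 (0.21 ± 0.06), were called higher and 0 lower, beside 5.68% and 2.61% of all genes. In OHT_Dox against OHT none of the 14 was called. With length and GC trends removed EIF4EBP2 lost both calls (0.078 in Dox against Ctrl and -0.073 in OHT_Dox against Dox), and RPS6KB1 lost its call in Dox against Ctrl there and after TMM rescaling (0.15, adjusted p = 0.121). In OHT against Ctrl single libraries decided the calls of ZNF598 (lost without Ctrl replicate 2, OHT replicate 2 or OHT replicate 3) and CDKN1A (lost without Ctrl replicate 1, Ctrl replicate 3, OHT replicate 3 or OHT_Dox replicate 1). RPS6KB1 lost its call there without any 1 OHT library, Ctrl replicate 2, Ctrl replicate 3, Dox replicate 2 or OHT_Dox replicate 1, and in Dox against Ctrl without any 1 Dox library, Ctrl replicate 2, Ctrl replicate 3, OHT replicate 3 or OHT_Dox replicate 1. None of the genes of these 4 lists was called in the test of the difference.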

How the data were processed

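The deposited values are CPM, scaled by the authors so that every library adds up to 1000000. Named in the submitters' processing notes are the builds hg19 and mm10 and the tools featureCounts, STAR, Bowtie, Bowtie2, DRAGEN and FastQC, with no role for each. Which of them made this table, their versions, the annotation and the strand setting are not given in the sources used here. Libraries were made with a directional kit, per the labels' protocols. All values were whole multiples of 1 read within 0.01, so whole reads were recovered (44466458 to 57694970 per library), and counting error is small beside the spread between libraries for core genes.

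Genes with at least 0.5 CPM in at least 3 libraries were tested with limma 3.58.1 (R 4.3.3) on log2(CPM + 0.5), with 1 mean per group over all 12 libraries, a mean trend and Benjamini-Hochberg adjustment over 18674 genes. A call was an adjusted p below 0.05, two-sided. The pseudocount shrinks changes of genes at a few CPM. Paralogue ratios were tested by exact permutation within strata (400 permutations, smallest p 0.005). Transcript lengths (the median among a gene's coding transcripts) and pseudogenes came from GENCODE release 29, and promoters from RefSeq (GRCh38.p14), used by symbol because the build named in the notes differs. Alternatives were TMM rescaling, pseudocounts of 0.1 and 2, no filter, edgeR 4.0.16 and DESeq2 1.42.0 on recovered reads, a replicate block, removal of length and GC trends, and leaving out each library. Leaving out Dox replicate 1 with OHT_Dox replicate 3, the ends of the GC trend, was added after seeing the data. The fits were tested on simulated data. Named genes were every paralogue and partner, up to 8 core calls per direction and comparison, the ends of the range of levels, RPL5, RPL11, RPS6, RPS27A, the stalk and the leading calls of 4 gene lists. Some genes of the lists are not reported here. The members and lists were chosen with earlier results of these data known.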

Additional observations from a re-analysis of the deposited data

How the results depend on the processing

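Core genes called lower in OHT against Ctrl numbered 22, and 13 after TMM rescaling, 13 with no filter on low values, and between 6 and 43 with single libraries left out. Over all genes the calls lower numbered 1641, and 1634 after TMM rescaling and 1329 of 28576 with no filter. With single libraries left out they lay between 1096 and 1765. In Dox against Ctrl core genes called lower numbered 22, and 6 with no filter and 50 with DESeq2. They numbered 13 without Dox replicate 1 and OHT_Dox replicate 3 (an alternative chosen after seeing the data), and between 0 and 46 with single libraries left out. Over all genes the calls lower numbered 487, and 318 of 28576 with no filter and 1168 with DESeq2. They numbered 353 without Dox replicate 1 and OHT_Dox replicate 3, and between 112 and 906 with single libraries left out. In OHT_Dox against Dox the core calls upward went to 1 with TMM rescaling, with edgeR, with DESeq2 and with length and GC trends removed (RPL36, and RPL31 for the trends), and to between 0 and 2 with single libraries left out. Over all genes these alternatives gave 2553, 2541, 2624 and 2621 calls upward, in the same order. With single libraries left out there were between 1717 and 2245. The core calls downward in that comparison went to 1, RPL10, with the trends removed, and to between 0 and 1 with single libraries left out. Over all genes there were 2417 with the trends removed and between 1834 and 2887 with single libraries left out. The difference of the OHT effects had between 0 and 28 core calls upward with single libraries left out, beside 0 to 272 over all genes. In 180 other cases recomputed core counts stayed within 1.5 times their value. Most of these cases were directions with 0 calls that kept 0 calls, which says nothing about how stable the 22 calls were. The share of core reads moved by less than 1 SD in each group after TMM rescaling. Why these counts moved was not tested beyond the samples or genes that each alternative removes.

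Over the alternatives, the changes of named core genes kept their side of the threshold in 849 recomputed values, lost a call in 59, gained one in 33 and turned in 4. With no filter RPL28, RPS20, RPLP1 and RPS27A lost their call in Dox against Ctrl, with the trends removed RPLP1 and RPLP2 did, and without Dox replicate 1 and OHT_Dox replicate 3 RPS27A did, while the other losses came from leaving out 1 library. RPL5 in OHT against Ctrl, uncalled, was the core gene that turned, at 0.0052 with the trends removed and between -0.054 and 0.0082 with single libraries left out. Called genes of the lists kept their side in 471 values and lost it in 74, and IPO9 in Dox against Ctrl turned to -0.0080 with the trends removed. Uncalled paralogue values near 0 changed sign. With single libraries left out, the log2 change in Dox against Ctrl ranged between -0.18 and 0.0061 for RPL22L1 (0.0061 also without Dox replicate 1 and OHT_Dox replicate 3) and between -0.042 and 0.026 for RPL7L1. Likewise the log2 ratio to the partner ranged between -0.085 and 0.038 for RPL22L1 with OHT, -0.012 and 0.11 for RPL22L1 with Dox, -0.037 and 0.018 for RPL26L1 with OHT, -0.019 and 0.042 for RPL39L with Dox, and -0.018 and 0.025 for RPS27L with OHT. For RPS27L with Dox it ranged between -0.13 and -0.084, and without Ctrl replicate 3 (-0.13) it reached a permutation adjusted p of 0.05. RPL26L1 was called in the difference of the OHT effects without Ctrl replicate 1 (0.32, adjusted p = 0.0389).

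The replicate numbers are shared by the 4 groups, and the labels do not say whether they pair the samples. The correlation of same-numbered libraries lay between -0.17 and 0.33, over 0.1 in 7 of 18 pairs. Of the 12 libraries, 9 correlated best with their own number. These values do not settle the pairing, and the main fit treated the libraries as unpaired. With a replicate block, 28 core genes were called lower in OHT against Ctrl and 33 in Dox against Ctrl, and 0 in the other comparisons and the difference. Calls over all genes rose as well. With the block 1946 genes were called lower in OHT against Ctrl, beside 1641 without it. In Dox against Ctrl the block gave 758, beside 487. It gave 3060 in OHT_Dox against Dox, 460 in OHT_Dox against OHT and 0 in the difference.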
